A study of Mus musculus with 16 samples.

Results

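*Il2*, *Il3* and *Csf2* encode IL-2, IL-3 and GM-CSF, the growth factor cytokines that lymphocytes release to feed themselves and their neighbors. These 3 genes, of 51912 in the count table, were chosen for their rise when group 2 innate lymphoid cells (ILC2s) met a neuropeptide. That rise is therefore described below and not tested. The libraries came from lung ILC2s of WT mice (*Pac1+/+*) and of *Pac1-/-* mice, which carry a germline loss of *Dusp2*, the gene for the phosphatase PAC1. The mice were 6 to 8 weeks old on a C57BL/6J background, and the sorted cells of every group had first been expanded for 1 to 2 weeks with IL-2 at 50 ng/mL and IL-7 at 100 ng/mL, after which both were withdrawn. Cells then received, for 4 hours, IL-7 at 100 ng/mL alone (the IL-7 group), IL-7 with IL-33 at 100 ng/mL (IL-33), or IL-7 and IL-33 with the neuropeptide CGRP or NMU at 500 ng/mL (CGRP and NMU). CGRP, calcitonin gene-related peptide, is known as a restraint on ILC2s, and NMU, neuromedin U, as an activator. Each of the 8 combinations of 2 genotypes and 4 treatments had 2 libraries, 16 in all, from about 500 ILC2s each. The sources used here do not say whether the 2 libraries of a group came from separate mice or cultures, so every P value measures only the spread between these libraries, which may be technical.

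IL-2 is the main growth factor of T cells, and ILC2s carry its high-affinity receptor. IL-3 and GM-CSF act on mast cells, basophils, eosinophils, and macrophages, and their receptors share a common beta chain. All 3 cytokines signal through JAK kinases and the transcription factor STAT5. Their genes are induced through calcium and NFAT, AP-1, and NF-kB, and their mRNAs are short-lived where they carry AU-rich elements in the 3′ untranslated region, which proteins such as tristetraprolin (the product of *Zfp36*) bind.

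In the GENCODE M21 annotation (GRCm38), *Il2* (ENSMUSG00000027720) lies on the minus strand of chromosome 3, from 37120523 to 37125959, with 4 exons. *Il3* (ENSMUSG00000018914) lies on the minus strand of chromosome 11, from 54265303 to 54267277, with 5 exons. *Csf2* (ENSMUSG00000018916) follows on the same strand, from 54247271 to 54249667, with 4 exons, and 15635 bases separate it from *Il3*. *Adad1* overlaps the end of *Il2* without sharing an exonic base, and the antisense gene *Gm12223* shares 96 of the 800 exonic bases of *Csf2*. The use of strand in counting is not given in the sources used here, so reads in that stretch cannot be told apart. *Gm12223* had 3 to 27 counts in a library, against at least 7732 for *Csf2*. *Adad1* had 41 to 95 counts in the 4 CGRP libraries and 0 to 9 in the other 12.

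The sequences before the *Il2* and *Il3* starts are shown because these are the genes whose mRNA went from none or little to abundant within the libraries. They are the bases upstream of both the RefSeq and the GENCODE start (GRCm38.p6, RefSeq, minus strand, 5′ to 3′), chr3:37125960-37126204 for *Il2* and chr11:54267280-54267529 for *Il3*, with matches to the motifs searched in capitals.
Il2 promoter: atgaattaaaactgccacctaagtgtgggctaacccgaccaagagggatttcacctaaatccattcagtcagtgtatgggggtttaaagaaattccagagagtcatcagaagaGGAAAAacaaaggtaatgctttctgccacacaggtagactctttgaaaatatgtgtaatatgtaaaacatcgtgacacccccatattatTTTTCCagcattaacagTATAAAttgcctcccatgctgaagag
Il3 promoter: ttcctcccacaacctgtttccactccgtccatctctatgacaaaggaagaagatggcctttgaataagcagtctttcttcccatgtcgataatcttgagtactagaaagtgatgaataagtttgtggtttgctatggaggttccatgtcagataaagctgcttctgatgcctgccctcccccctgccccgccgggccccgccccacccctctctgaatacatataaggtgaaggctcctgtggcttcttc
The *Il2* window of 245 bases held the NFAT core GGAAAA 2 times, once on each strand at positions -137 and -48 from the start, and the TATA box TATAAA at position -31. Of 32851 RefSeq promoter windows, 23.4% held that NFAT core and 13.6% that TATA box. Those windows ran from 250 bases before the start to 50 after it, so they were longer than the ones shown. The *Il3* window of 250 bases held neither, nor did the 250 bases before the RefSeq start of *Csf2*, which lies 232 bases upstream of the GENCODE start. No match to AP-1 (TGANTCA), the cAMP response element (TGACGTCA), its 5-base core (TGACG), or the NF-kB consensus was present on either strand of the 3 windows, against 7.81%, 1.79%, 20.8%, and 0.411% of the longer windows of all promoters. A missing match says only that these letters are not in these windows.

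The 3′ ends of the mRNAs are shown because AU-rich elements lie there. The pentamer ATTTA, the core of the AU-rich element, occurred 7 times in the 581 bases of the *Il2* 3′ untranslated region, 9 times in the 317 bases of *Csf2*, and once in the 101 bases of *Il3*. The RefSeq gene of *Il3* reaches 218 bases past that GENCODE end, so its count and density hold for the shorter annotation alone. The RefSeq gene of *Il2* stops short of the GENCODE end (-190 bases), so the count and density of *Il2* hold for the longer annotation alone. Among 20676 genes, 0.634% had the pentamer as densely as *Il2*, 0.0532% as densely as *Csf2*, and 1.19% as densely as *Il3*, while 13.51%, 8.72%, and 66.2% held as many copies or more. The densest 30 bases of *Il2* (chr3:37121040-37121069) and of *Csf2* (chr11:54247329-54247358), read on the minus strand of GRCm38 with the GENCODE annotation, show the overlapping copies in capitals.
Il2 AU-rich stretch: ctATTTATTTAaatATTTAactttaATTTA
Csf2 AU-rich stretch: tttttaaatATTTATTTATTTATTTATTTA

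Libraries held 6764992 to 15963357 counted reads (median 11071278). Levels are given as CPM, the counts rescaled so that each library sums to 1000000, and the 3 counts that a count of 0 still allows (the floor) amount to between 0.188 and 0.443 CPM. The 13 ILC2 markers summed to 8983 to 13316 CPM per library, with 12 or 13 detected in each. The targeted gene *Dusp2* had 0 counts in 8 of 8 *Pac1-/-* libraries but also in 6 of 8 WT libraries, so it could not check the labels. Of T cell markers, *Cd8a* was at 0 in all 16 libraries and *Cd4* in 15, whereas *Trbc2* was at 212 to 648 CPM. The WT libraries with NMU and the *Pac1-/-* libraries with CGRP stood apart in markers of other cell types, which are given beside the results they touch. The 2 *Pac1-/-* libraries with IL-33 differed most from each other (chi-square per degree of freedom over genes 126, against 59.5 to 77.5 in the other 7 groups), and their TMM scaling factors were 1.137 and 1.271, against 0.8988 to 1.148 in the other 14 libraries. Because these are bulk libraries, fewer producing cells and less mRNA per cell cannot be told apart.

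**Figure D1:**
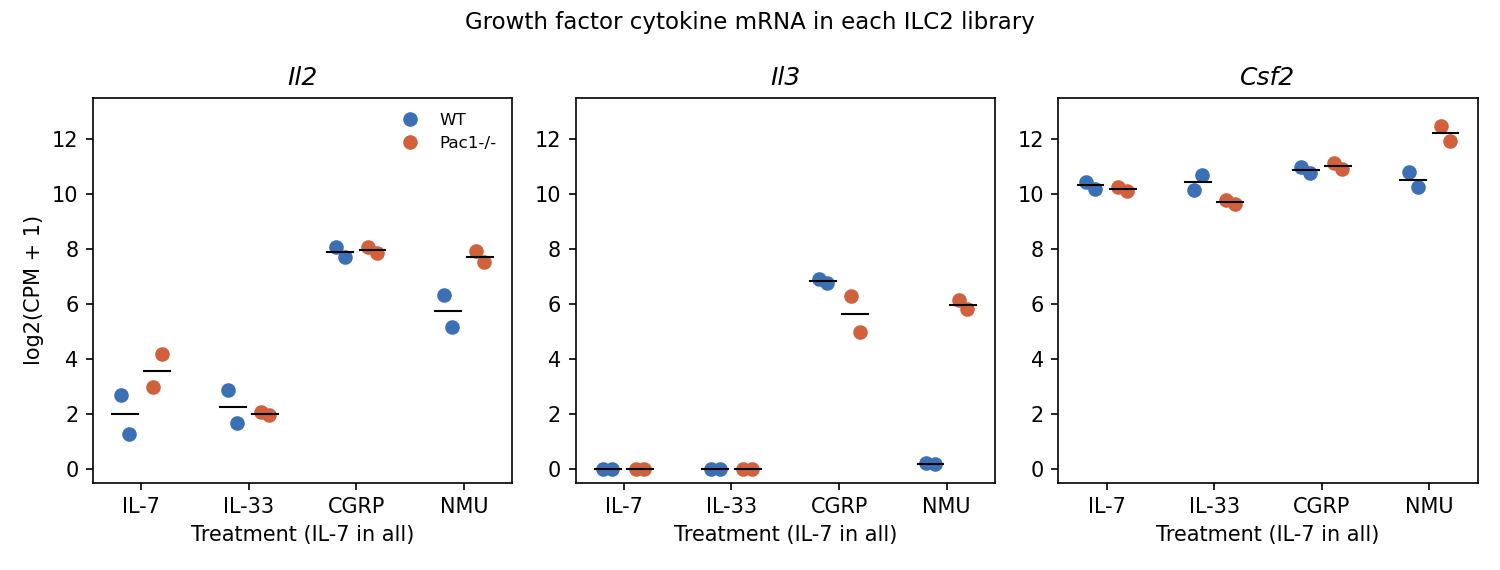
Expression of *Il2*, *Il3* and *Csf2* as log2(CPM + 1) in each library, by treatment (x axis) and genotype (blue WT, red *Pac1-/-*), with 2 libraries per group as points and their mean as a bar. *Il3* sits at 0 in all IL-7 and IL-33 libraries, and with NMU only the *Pac1-/-* points leave the bottom of the panel.

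The 3 genes began from very different levels. Scaled by exonic length, *Csf2* was the most abundant in every group, from 1054 CPM per kilobase in *Pac1-/-* cells with IL-33 to 6044 in *Pac1-/-* cells with NMU. *Il2* ranged from 2.65 to 221 CPM per kilobase, and *Il3* from 0 to 182. The spread between the 2 libraries of a group, pooled over groups on the log2 CPM scale, had an SD of 0.772 for *Il2*, 0.345 for *Il3*, and 0.350 for *Csf2*.

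*Il2* was close to silent without a neuropeptide. In WT cells it was at 5.45 and 1.43 CPM with IL-7, at 6.36 and 2.16 CPM with IL-33, at 270 and 210 CPM with CGRP, and at 78.5 and 34.5 CPM with NMU. In *Pac1-/-* cells it was at 6.94 and 16.9 CPM with IL-7, at 3.17 and 2.90 CPM with IL-33, at 272 and 232 CPM with CGRP, and at 240 and 182 CPM with NMU. Every library with a neuropeptide was thus above every library without one. The group means with CGRP were 56.3-fold those with IL-33 in WT cells and 83.2-fold in *Pac1-/-* cells, and those with NMU were 13.3-fold and 69.6-fold. In the order of group means, CGRP in *Pac1-/-* cells, CGRP in WT cells, and NMU in *Pac1-/-* cells overlapped as neighbors at the top, NMU in WT cells stood alone below them, and the IL-7 group of *Pac1-/-* cells stood above the remaining 3, which overlapped.

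*Il3* had 0 counts in all 8 libraries without a neuropeptide. With CGRP it reached 121 and 108 CPM in WT cells and 76.4 and 30.8 CPM in *Pac1-/-* cells. With NMU it was at 69.5 and 54.9 CPM in *Pac1-/-* cells (809 and 602 counts), whereas each WT library held 1 count (0.148 and 0.128 CPM), which is under the floor. Against IL-33, taken at the floor of 3 counts over the group, *Il3* was at least 881-fold higher with CGRP in WT cells, at least 469-fold higher with CGRP in *Pac1-/-* cells, and at least 523-fold higher with NMU in *Pac1-/-* cells. No fold is given for NMU in WT cells, since both groups were at or under the floor.

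*Csf2* was abundant in every library and moved least. In WT cells it was at 1388 and 1168 CPM with IL-7, 1141 and 1653 CPM with IL-33, 2041 and 1750 CPM with CGRP, and 1807 and 1212 CPM with NMU. In *Pac1-/-* cells the values were 1233 and 1102 CPM with IL-7, 887 and 800.0 CPM with IL-33, 2232 and 1935 CPM with CGRP, and 5755 and 3916 CPM with NMU. Only the *Pac1-/-* libraries with NMU exceeded 2232 CPM, and among WT groups the NMU libraries overlapped those with IL-33. The mean with CGRP was 1.36-fold that with IL-33 in WT cells and 2.47-fold in *Pac1-/-* cells, and with NMU it was 1.08-fold and 5.73-fold.

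With both genotypes in 1 fit, the log2 fold change of CGRP against IL-33 was 6.36 (SE 0.396) for *Il2* and 1.13 (SE 0.256) for *Csf2*, and that of NMU against IL-33 was 5.10 (SE 0.681) for *Il2* and 1.48 (SE 0.559) for *Csf2*, or 1.08 and 0.99 without either *Pac1-/-* library of IL-33 in turn. *Il3* could not be fitted there because all IL-33 libraries were at 0. Across all genes, 1.75% of 13160 passed the cutoff with CGRP (fold change above 1.5 and adjusted P under 0.05) and 0.103% of 12567 with NMU. These shares are given for scale only, as the members were chosen on these contrasts.

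To ask whether the loss of PAC1 altered the cytokine response, genotypes were compared within each treatment. For each of the 3 genes the largest fold difference between genotypes was with NMU. In *Pac1-/-* cells the mean of *Il3* was 455-fold that of WT cells (95% exact counting interval of the ratio of summed counts 126 to 3762, which covers counting error only), that of *Il2* was 3.73-fold, and that of *Csf2* was 3.20-fold. For each of the 3 genes both *Pac1-/-* libraries lay above both WT libraries, which was true of 14.5% of the 10621 genes tested. In edgeR's quasi-likelihood test, adjusted by Benjamini-Hochberg over those genes, *Il3* was higher in *Pac1-/-* cells, with a log2 fold change of 8.84 (SE 0.719, adjusted P = 0.0348), whereas *Il2* (2.0, SE 0.527, adjusted P = 0.903) and *Csf2* (1.81, SE 0.445, adjusted P = 0.903) did not pass. Of all genes tested, 0.0282% passed (3 of 10621). Among them was *Sftpc*, an epithelial marker described below, which was lower in *Pac1-/-* cells. The NMU values of *Il2* and *Csf2* are part of the rise for which they were chosen, so their P values are not independent of that choice. *Il3* passed the filter on low counts only through the *Pac1-/-* libraries, whose high values with NMU are also part of the rise for which it was chosen, so its P value is not independent of that choice either. The call depended on having both WT libraries: with WT replicate 1 left out the adjusted P value was 0.118, and with WT replicate 2 left out it was 0.0657, at log2 fold changes of 9.06 and 8.62. With DESeq2 in place of edgeR, *Il2* and *Csf2* passed as well (adjusted P = 0.0164 and 0.000799).

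These WT libraries with NMU also carried RNA of other cell types. The 8 epithelial, stromal, and endothelial markers summed to 353 and 301 CPM there, against 72.6 and 91.3 CPM in *Pac1-/-* libraries with NMU and 27.9 to 141 CPM in the other 12. *Sftpc*, which encodes surfactant protein C of alveolar epithelial cells, was at 171 and 108 CPM in WT cells with NMU and at 0.172 CPM or less in the other 14 libraries. The 11 myeloid, mast cell, and basophil markers summed to 196 and 100 CPM in WT cells, against 54.2 and 58.6 CPM in *Pac1-/-* cells and 34.8 to 188 CPM in the other 12 libraries. *Cpa3*, a mast cell protease gene, was detected in every library (25.7 to 163 CPM), at 72.9 and 54.7 CPM in WT and 39.8 and 55.8 CPM in *Pac1-/-* cells with NMU. *Lyz2*, a macrophage and neutrophil gene, was at 108 and 32.1 CPM in WT cells with NMU and at 1.20 CPM or less elsewhere. *Fcer1a*, of the IgE receptor, reached 14.6 CPM and was at 0 in 9 libraries, whereas *Mcpt8*, *Ms4a2*, *S100a8*, and *S100a9* never exceeded 0.546 CPM. T cell markers overlapped between the genotypes (780 and 651 CPM in WT, 1069 and 747 CPM in *Pac1-/-*). The part of these markers in the differences of *Il2*, *Il3*, and *Csf2* was not tested. The WT libraries with NMU were also the shallowest (6764992 and 7826406 counts), with floors of 0.443 and 0.383 CPM, which are below the 54.9 CPM or more of *Il3* in the *Pac1-/-* libraries.

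**Figure D2:**
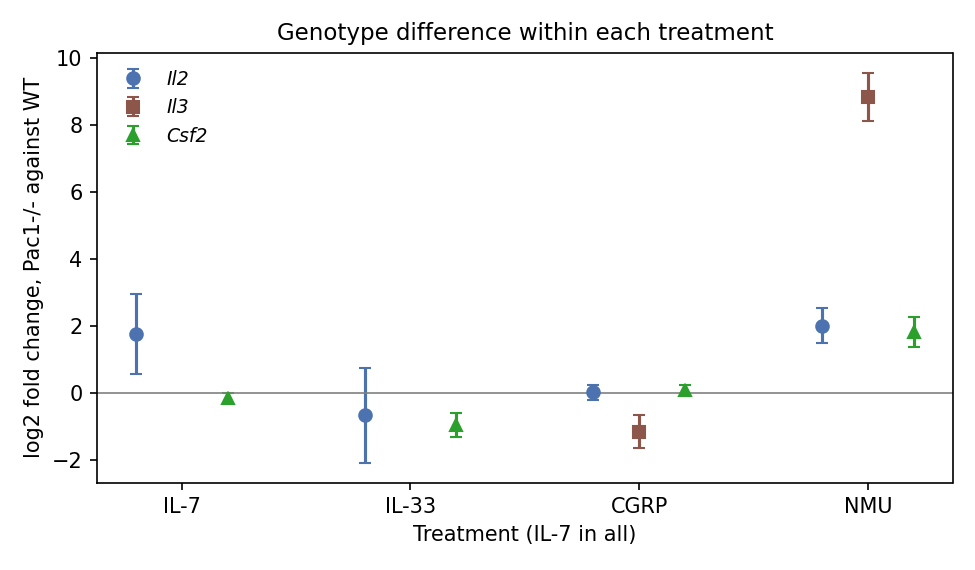
Log2 fold change of *Pac1-/-* against WT within each treatment for *Il2* (circles), *Il3* (squares) and *Csf2* (triangles) from edgeR, with bars of 1 SE and 2 libraries per group. All 3 genes lie above 0 with NMU, from 1.81 for *Csf2* to 8.84 for *Il3*, and *Il3* has no point with IL-7 or IL-33, where it was at 0.

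With CGRP the genotypes differed by less than 1 SE for *Il2* (log2 fold change 0.013, SE 0.234, edgeR adjusted P = 1) and *Csf2* (0.079, SE 0.158, adjusted P = 1), and their libraries overlapped. *Il3* was 2.13-fold lower in *Pac1-/-* cells by group means, without overlap, as were 16.2% of genes, and did not pass the test (log2 fold change -1.16, SE 0.497, edgeR adjusted P = 0.73). None of the 10912 genes tested passed (0%), with 822 at an unadjusted P under 0.05 and 202 called by DESeq2. The 4 B cell markers summed to 261 and 260.5 CPM in *Pac1-/-* libraries with CGRP, against 32.2 and 73.0 CPM in WT libraries with CGRP and 40.5 CPM or less elsewhere. Their part in the *Il3* values was not tested.

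Without a neuropeptide the genotype differences of the 3 genes did not pass the edgeR test. With IL-7, both *Pac1-/-* libraries had more *Il2* than both WT libraries, 3.47-fold by means, as did 17.9% of genes (log2 fold change 1.75, SE 1.2, edgeR adjusted P = 1). With IL-33, both *Pac1-/-* libraries had less *Csf2*, 1.66-fold by means, as did 11.5% of genes (log2 fold change -0.96, SE 0.369, edgeR adjusted P = 0.913). Without either of these *Pac1-/-* libraries in turn it was -1.12 or -0.81. *Csf2* with IL-7 (-0.15, SE 0.154) and *Il2* with IL-33 (-0.68, SE 1.42) overlapped between genotypes. Across all genes, 0.00916% passed with IL-7 and 0.00874% with IL-33. Over all 4 treatments together, where 0.0801% of 14979 genes passed, the log2 fold changes were 0.80 for *Il2* (SE 0.432, adjusted P = 0.848), 2.51 for *Il3* (SE 2.18, adjusted P = 0.981), and 0.17 for *Csf2* (SE 0.304, adjusted P = 1) in edgeR.

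Whether the response to a neuropeptide itself differed by genotype was tested as an interaction. For NMU against IL-33 the response of *Csf2* was larger in *Pac1-/-* cells by 2.76 on the log2 scale (SE 0.58, with the fifth smallest P value of 12567 genes in edgeR) and that of *Il2* by 2.68 (SE 0.845), but neither passed adjustment (both adjusted P = 0.764). The lower *Csf2* of *Pac1-/-* cells with IL-33 enters this difference, which was 2.92 or 2.63 without either of those libraries in turn. None of the genes passed (0%), with 801 at an unadjusted P under 0.05 and 38 called by DESeq2, among them *Csf2* (adjusted P = 0.000639). Interactions against IL-33, with NMU or CGRP, use the values of the rise for which *Il2* and *Csf2* were chosen, and are no independent support. For CGRP against IL-33 the interaction was 1.05 for *Csf2* (SE 0.378, adjusted P = 0.853) and 0.70 for *Il2* (SE 0.635, adjusted P = 0.955) in edgeR, and again 0% of 13160 genes passed, with 719 at an unadjusted P under 0.05 and 113 called by DESeq2. A direct comparison of the genotype difference with NMU against that with CGRP, added after the values were seen because *Il3* has no counts with IL-33, gave 9.98 for *Il3* (SE 0.889, edgeR adjusted P = 0.0558), 1.96 for *Il2* (SE 0.652, adjusted P = 0.717), and 1.70 for *Csf2* (SE 0.489, adjusted P = 0.717). This comparison draws on the CGRP and NMU values for which the genes were chosen, and is no independent support. None of 12834 genes passed there in edgeR (0%), with 845 at an unadjusted P under 0.05 and 147 called by DESeq2, which gave adjusted P values of 1.91e-11 for *Il3* and 0.025 for *Csf2*.

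None of the 3 genes passed the test for IL-33 against IL-7. *Il2* differed by -1.04 on the log2 scale (SE 0.986, edgeR adjusted P = 0.836) and *Csf2* by -0.36 (SE 0.23, adjusted P = 0.687), *Il3* was at 0 throughout, and 0.0462% of 12980 genes passed. In *Pac1-/-* cells, *Il2* was 3.94-fold and *Csf2* 1.38-fold lower with IL-33, both without overlap, as were 12.3% of genes. In WT cells both overlapped. The 10 T cell markers summed to 1008 to 1102 CPM in the IL-7 libraries and 485 to 784 CPM in the IL-33 libraries, with *Cd3d* lower with IL-33 (log2 fold change -3.27, edgeR adjusted P = 0.0495) while *Cd4* and *Cd8a* were at 0 in both groups. *Cd3d* did not pass in edgeR with all 16 libraries in the fit (adjusted P = 0.0732) or with the replicate block (adjusted P = 0.122). Their part in the *Il2* values was not tested. The IL-33 libraries are the baseline of the rise for which the genes were chosen.

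Set against each other, CGRP and NMU gave unlike levels in the 2 genotypes, with the test of that difference given above. In WT cells, *Il3* with CGRP was 841-fold its level with NMU (95% exact counting interval 232 to 6945) and *Il2* 4.25-fold, both without overlap, as were 18.6% of genes, and *Csf2* was 1.26-fold with overlap. In *Pac1-/-* cells, *Il2* (1.20-fold) and *Il3* (1.16-fold lower with CGRP) overlapped, and *Csf2* was 2.32-fold lower with CGRP, without overlap, as were 22.7% of genes. In 1 fit with genotype as a covariate, the log2 fold change of CGRP against NMU was 1.26 for *Il2* (SE 0.479, edgeR adjusted P = 0.199), 3.64 for *Il3* (SE 2.32, adjusted P = 0.459), and -0.34 for *Csf2* (SE 0.383, adjusted P = 0.715), while 3.86% of 12834 genes passed. *Il2* and *Il3* passed with DESeq2 (adjusted P = 0.0285 and 0.0302). The CGRP and NMU values are those of the rise for which the genes were chosen. These P values are therefore not independent of that choice.

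Some of the transcription factors known to act on these genes rose with CGRP, and none was called by edgeR with NMU. With CGRP, 7 of 24 rose against IL-33 and 1 fell, where 1.75% of all genes were called (median log2 fold change 0.298, against -0.0889 over all genes). The 7 were the AP-1 subunits *Jun* (4.17), *Fos* (3.73), *Fosb* (3.69), *Junb* (3.12), and *Fosl2* (1.57), the stress-induced factor *Atf3* (3.29), and the NF-kB subunit *Rel* (2.15), with edgeR adjusted P values from 0.000197 (*Fos*) to 0.0205 (*Jun*). The one that fell was *Batf*, another AP-1 family member (-1.71, adjusted P = 0.0438). Leaving out each library in turn, 7 to 9 of the factors passed with CGRP, and *Batf* lost its call in 4 of the 8 fits. *Fos* went from group means of 34.7 CPM in WT and 55.8 CPM in *Pac1-/-* cells with IL-33 to 414 and 560 CPM with CGRP.

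With NMU, 0 of the 23 factors tested passed in edgeR (median -0.134), and *Fos* was at 30.7 CPM in WT and 32.1 CPM in *Pac1-/-* cells. An unadjusted P under 0.05 was seen for 1 factor (7.73% over all genes), and 1 was called by DESeq2. The AP-1 gene *Fosl1* had group means of 4.49 CPM in WT and 6.13 CPM in *Pac1-/-* cells with IL-33. With NMU its means were 24.3 and 22.2 CPM, without overlap in WT cells and with overlap in *Pac1-/-* cells. With CGRP they were 0.687 and 0 CPM. In the *Pac1-/-* libraries with NMU, *Il2* was at 240 and 182 CPM. Tested directly, 8 of the 24 factors were higher with CGRP than with NMU and 1 was lower, where 3.86% of all genes were called, the largest being *Jun* (log2 fold change 4.91, edgeR adjusted P = 0.00182), with *Crem*, a cAMP-responsive factor, as the one added to the 7 above (0.88, edgeR adjusted P = 0.0229), although *Crem* lost its call in 3 of 8 fits that each left out 1 library. Between the genotypes with NMU, 0 of 23 factors passed in edgeR, with 1 at an unadjusted P under 0.05 (5.04% over all genes) and 0 called by DESeq2. *Egr1* was at 32.1 to 40.1 CPM in *Pac1-/-* and 4.34 to 15.4 CPM in WT cells with NMU. Both *Pac1-/-* libraries were thus above both WT libraries, as for 14.5% of genes. Its part in the cytokine differences was not tested.

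**Figure D3:**
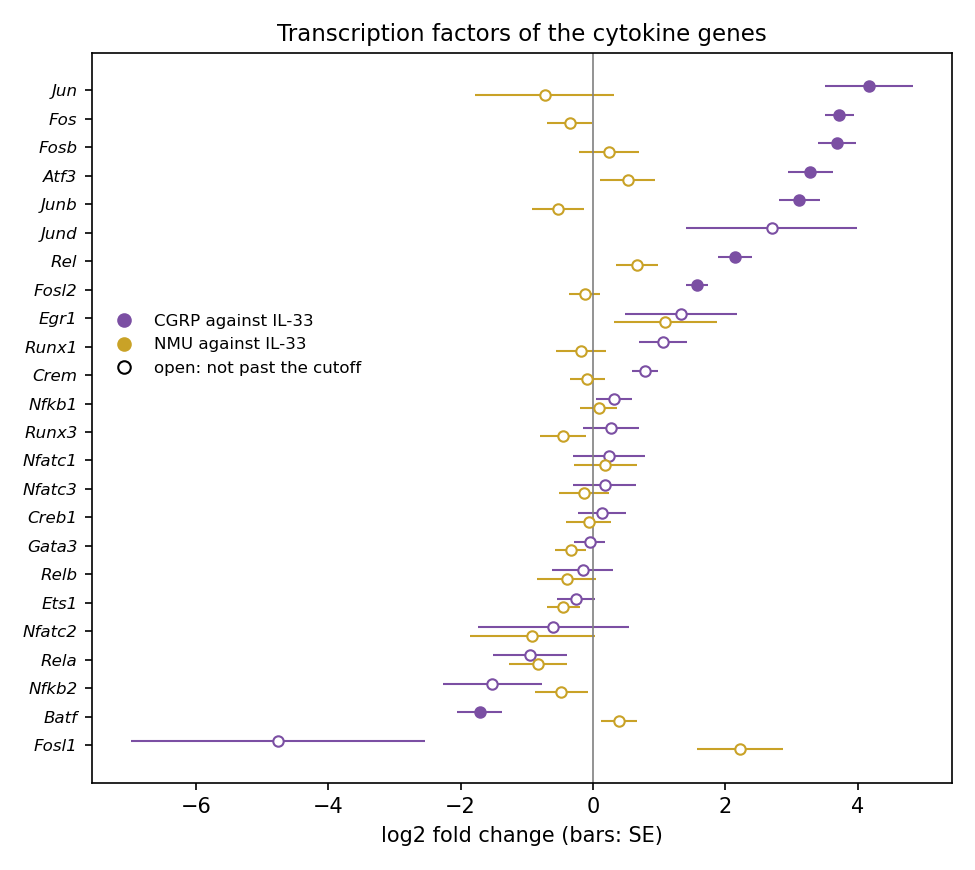
Log2 fold change against IL-33 of the transcription factors known to act on the cytokine genes, with CGRP (purple) and with NMU (yellow), bars of 1 SE, filled where past the cutoff. The AP-1 genes at the top reach 4.17 with CGRP (*Jun*), whereas all NMU points are open.

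Of 11 RNA-binding regulators of cytokine mRNA tested, *Zfp36*, whose product tristetraprolin binds AU-rich elements of the kind shown above, was the one that rose with CGRP (log2 fold change 2.75, SE 0.331, edgeR adjusted P = 0.00627). It was also higher with CGRP than with NMU (2.28, SE 0.264, edgeR adjusted P = 0.00329). With NMU against IL-33, 0 of the 11 passed in edgeR, 1 had an unadjusted P under 0.05, and 0 were called by DESeq2. The medians of the list were 0.417 with CGRP and 0.011 with NMU, on the log2 scale. Over all genes, 1.75% were called with CGRP, 0.103% with NMU, and 3.86% between the neuropeptides.

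The receptors for the 3 cytokines were unequally present. *Il2ra*, the alpha chain that gives the IL-2 receptor its high affinity, was at 611 to 1964 CPM and *Il2rg*, the common gamma chain, at 389 to 1700 CPM, while *Il2rb* was at 11.9 to 112 CPM. *Il3ra* (up to 1.76 CPM) and *Csf2ra* (up to 2.26 CPM), the ligand-specific chains for IL-3 and GM-CSF, were near the floor. The common beta chains were detected in every library for *Csf2rb2*, used by IL-3 alone (13.8 to 200 CPM), and at 0.084 to 70.0 CPM for *Csf2rb*.

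Against IL-33, 0 of the 5 subunits that passed the filter were called in edgeR with CGRP (3 at an unadjusted P under 0.05, 1 called by DESeq2) or with NMU (2 and 0). Over all genes, 15.1% with CGRP and 7.73% with NMU had an unadjusted P under 0.05, and 1.75% and 0.103% were called. Between the neuropeptides, *Csf2rb* (log2 fold change 3.13, SE 0.538, edgeR adjusted P = 0.0168) and *Csf2rb2* (3.19, SE 0.36, adjusted P = 0.00309) were higher with CGRP, and *Il2ra* was lower (-1.15, SE 0.178, adjusted P = 0.0108). Of all genes, 3.86% were called in that comparison. *Csf2rb2* had group means of 162 and 193 CPM with CGRP in WT and *Pac1-/-* cells, and 23.3 and 18.6 CPM with NMU. *Il2rb* (0.14, edgeR adjusted P = 0.904) and *Il2rg* (-0.76, adjusted P = 0.154) did not pass, although *Il2rg* was called lower with CGRP by DESeq2 (adjusted P = 0.0327) and without a filter on low counts (adjusted P = 0.0176). The 2 beta chains are closely similar paralogs, so reads may be split between them, and *Csf2rb* lost its call without WT replicate 2 of CGRP (adjusted P = 0.0608) and in the fit of all 16 libraries (adjusted P = 0.108). Between the genotypes with NMU, 0 of 5 subunits passed in edgeR, 0 had an unadjusted P under 0.05, and 0 were called by DESeq2. Over all genes, 0.0282% passed there and 5.04% had an unadjusted P under 0.05.

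Among 18 genes of JAK-STAT5 signaling, *Socs2*, a feedback inhibitor, rose with CGRP (log2 fold change 1.17, edgeR adjusted P = 0.0165), and was higher with CGRP than NMU (1.79, adjusted P = 0.00182), as was the survival gene *Bcl2* (1.90, adjusted P = 0.0299). *Socs2* lost the first of these calls in 3 of 8 fits that each left out 1 library, and *Bcl2* lost its call in 5 of 8. With CGRP against IL-33, 1 of 18 was called in edgeR (1.75% over all genes). There, 8 had an unadjusted P under 0.05 (15.1% over all genes), and 3 were called by DESeq2. Between the neuropeptides, 2 were called in edgeR and 5 had an unadjusted P under 0.05 (3.86% and 19.4% over all genes). With NMU against IL-33, 0 of 18 passed in edgeR (median -0.225, against -0.0722 over all genes). An unadjusted P under 0.05 was seen for 3 (7.73% over all genes), and 0 were called by DESeq2.

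*Il3* and *Csf2* share their stretch of chromosome 11 with the type 2 cytokine genes. Of 9 tested neighbors, *Il4* rose against IL-33 with CGRP (log2 fold change 3.69, edgeR adjusted P = 0.00141) and with NMU (3.22, adjusted P = 0.00485), and *Il13* with NMU (2.79, adjusted P = 0.00306). Of all genes, 1.75% were called with CGRP and 0.103% with NMU against IL-33, and 3.86% between the neuropeptides. In edgeR, *Il13* (-4.53, adjusted P = 0.00301) and *Il5* (-1.05, adjusted P = 0.0254) were lower with CGRP than with NMU, whereas *Il3* was not called in that comparison. The *Il5* call was lost without *Pac1-/-* replicate 2 of CGRP (adjusted P = 0.0767). Between the genotypes with NMU, 0 of the 9 neighbors passed in edgeR, with 1 (*Il13*, log2 fold change 1.35) at an unadjusted P under 0.05 and 1 called by DESeq2. Of all genes, 0.0282% passed in edgeR there and 5.04% had an unadjusted P under 0.05. The median log2 fold change of the neighbors was -0.992, beside 8.84 for *Il3* and 1.81 for *Csf2* (-0.019 over all genes). *Il3* and *Csf2* were chosen for values that include those with NMU, so this contrast with their neighbors is no independent support. Of the neighbors of *Il2* on chromosome 3, 0 of 6 passed with CGRP against IL-33 in edgeR, with 3 at an unadjusted P under 0.05 and 1 called by DESeq2. Over all genes, 1.75% passed in edgeR and 15.1% had an unadjusted P under 0.05.

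**Figure D4:**
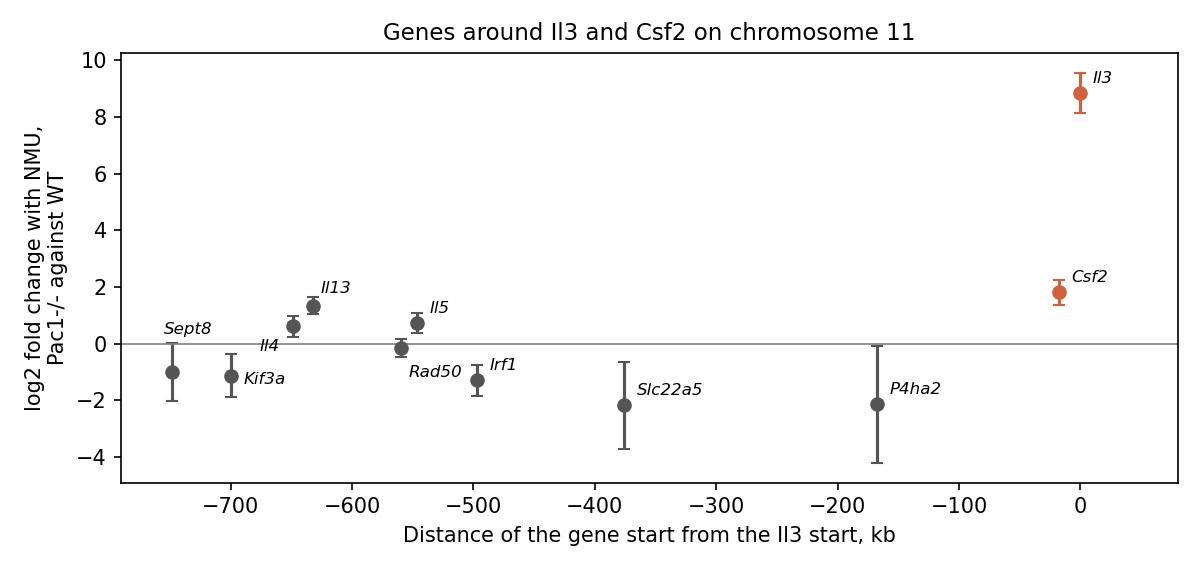
Log2 fold change of *Pac1-/-* against WT with NMU for the genes of the chromosome 11 cytokine cluster, placed by the distance of their start from that of *Il3* in kb, with bars of 1 SE and *Il3* and *Csf2* in red. *Il3* (8.84) and *Csf2* (1.81) lie above every neighbor tested, and of these genes *Il3* alone passed the cutoff. Both were chosen for their rise with the neuropeptides, so neither their place nor the call is independent of that choice.

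The genes most like each member, by Pearson's r of log2 CPM over the 16 libraries and 14979 genes, are given as a description, since the libraries share treatments and depth. *Il2* was most like *Il4* (r = 0.926), then *Il3* (0.896), the chemokine *Cxcl2* (0.878), the ERK feedback gene *Spry2* (0.878), and the growth factor *Areg* (0.846). *Il3* was most like *Arl5b* (0.902), then *Il2*, *Areg* (0.89), the activation marker *Cd69* (0.888), and *Gm25939* (0.865). *Csf2* had another company: *Naca* (0.916), the chemokine *Ccl1* (0.882), *Snhg6* (0.866), *Snu13* (0.861), and *Polr1d* (0.853). The r of *Csf2* was 0.751 with *Il2* and 0.762 with *Il3*. By Spearman's rho, 2, 1, and 2 of the 5 genes stayed among the first 5 for *Il2*, *Il3*, and *Csf2*.

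**Figure D5:**
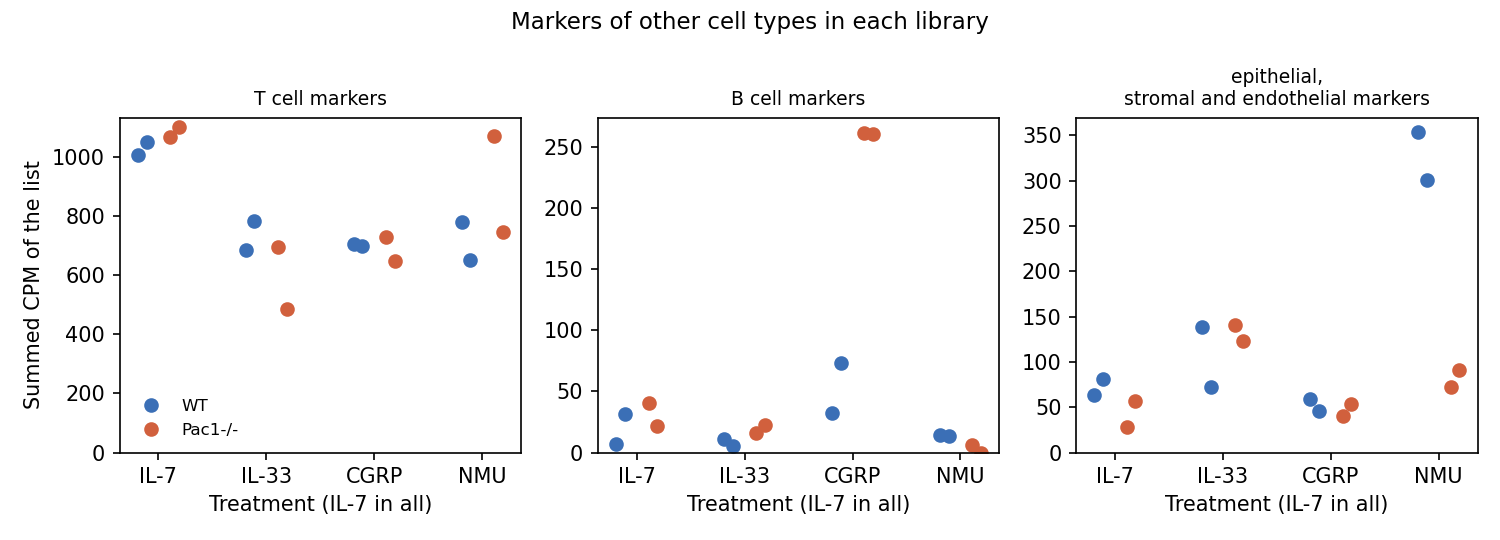
Summed CPM of the T cell, B cell, and epithelial, stromal, and endothelial marker lists in each library, by treatment (x axis) and genotype (blue WT, red *Pac1-/-*), 2 points per group. The *Pac1-/-* libraries with CGRP stand apart in B cell markers (261 and 260.5 CPM) and the WT libraries with NMU in epithelial, stromal, and endothelial markers (353 and 301 CPM).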

How the data were processed

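Bulk mRNA-Seq libraries of lung ILC2s were analysed, with groups taken from the sample labels. The authors deposited unnormalized counts of reads for Ensembl genes, 1 column a library. The authors amplified full-length cDNA, sequenced paired reads of 150 bases, and aligned them to mm10 with HISAT2. The counting tool, annotation, strand use, and handling of duplicates are not given in the sources used here. Without molecular identifiers, intervals and floors cover counting error only.

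Symbols came from GENCODE M21 (51633 of 51912 genes matched), promoters from RefSeq. In R 4.3.3, edgeR 4.0.16 was used with TMM scaling (factors 0.8988 to 1.271), filterByExpr, and quasi-likelihood F tests fitted to only those libraries being compared, with genotype as covariate where genotypes were pooled. Genes were called at adjusted P under 0.05 (Benjamini-Hochberg over all genes tested) and more than 1.5-fold. SE is the log2 fold change divided by the root of the F statistic. Other settings tried were DESeq2 1.42.0, scaling by RLE, no low-count filter, a replicate block, a joint fit to all 16 libraries, and dropping single libraries. The interaction of genotype with neuropeptide was added after the data were seen. The steps were run on simulated counts for some of the comparisons. The genes changed there were well expressed, so a group at or under the floor, as for *Il3*, was not covered. The named genes are *Il2*, *Il3*, and *Csf2*, the 5 genes most like each by Pearson's r, and from the lists the receptor subunits and genes past the cutoff. The 3 genes and all lists were chosen with earlier results of these data known. *Mcpt8*, *Ms4a2*, *Cpa3*, *Lyz2*, *Fcer1a*, *S100a8*, *S100a9*, *Sftpc*, *Cd3d*, *Cd4*, *Cd8a*, *Trbc2*, *Adad1*, *Gm12223*, and *Dusp2* were named for checks. *Fosl1* and *Egr1* were named after their levels were seen.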

Additional observations from a re-analysis of the deposited data

Results flagged for a closer look

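2 of the 3 genes had every *Pac1-/-* library on one side of every WT library in one treatment and on the other side in another. *Il3* was lower in *Pac1-/-* cells with CGRP (log2 fold change -1.16) and higher with NMU (8.84). The direct comparison of these 2 differences, chosen after the values were seen, gave 9.98 (SE 0.889, edgeR adjusted P = 0.0558). *Csf2* was lower in *Pac1-/-* cells with IL-33 (-0.96) and higher with NMU (1.81), and the interaction of genotype with NMU gave 2.76 (SE 0.58, edgeR adjusted P = 0.764). Neither passed adjustment in edgeR. DESeq2 (adjusted P = 1.91e-11 for *Il3* and 0.000639 for *Csf2*) and edgeR without a filter on low counts (7.33e-19 and 0.00477) called both, and *Il3* was also called with the replicate block (0.0245) and with all 16 libraries in the fit (0.0358). The *Il3* values with CGRP and NMU, and the *Csf2* values with IL-33 and NMU, belong to the rise for which the genes were chosen. Neither result is therefore independent support. With 2 libraries per group, no single library could be tested as an outlier.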

How the results depend on the processing

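With RLE size factors, all 41 results on the 3 genes and on counts of genes kept their direction and their side of the threshold. Other choices moved the counts of genes called, and the cause was not tested. Between genotypes with IL-7, IL-33, CGRP, NMU, and over all treatments, DESeq2 called 78, 66, 202, 66, and 77 genes and edgeR without a filter on low counts called 28, 18, 82, 32, and 62, against 1, 1, 0, 3, and 12. For IL-33 against IL-7, CGRP against NMU, CGRP against IL-33, and NMU against IL-33, DESeq2 called 423, 1674, 1078, and 170 and no filter gave 201, 1102, 639, and 77, against 6, 495, 230, and 13. For the interactions of genotype with CGRP, with NMU, and with neuropeptide, DESeq2 called 113, 38, and 147 and no filter gave 44, 20, and 90, against 0 each. The fit of all 16 libraries gave 16 genes between genotypes with CGRP, 820 for CGRP against NMU, 413 for CGRP against IL-33, 28 for NMU against IL-33, and 5 for the neuropeptide interaction.

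Of the 3 genes, DESeq2 called *Il2* (2.01) and *Csf2* (1.82) between genotypes with NMU, and no filter called *Il2* (2.01). For CGRP against NMU, DESeq2 called *Il2* (1.27) and *Il3* (4.63), no filter called both (1.23 and 3.74), and the fit of all 16 libraries called *Il3* (4.78). The NMU interaction of *Csf2* was called by DESeq2 (2.78) and without a filter (2.76). All of these contrasts use values of the rise for which the genes were chosen. Calls of the 3 genes, in any setting of this section, are therefore no independent support. The neuropeptide interaction was called for *Il3* (10.12) and *Csf2* (1.69) by DESeq2, for *Il3* (9.99) and *Csf2* (1.72) without a filter, and for *Il3* in the fit of all 16 libraries (10.01).

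Replicate numbers are shared by all groups, but same-numbered libraries did not deviate together (r from -0.0641 to 0.039 over 28 pairs of groups, 0 over 0.1). Each r rests on a single replicate difference per group, so it cannot settle whether same-numbered libraries share an origin. With the replicate block, *Il3* between genotypes with NMU was at 8.81 (adjusted P = 0.0516), the neuropeptide interaction of *Il3* at 10.05 (adjusted P = 0.0245) with 2 genes called, and 0 genes were called between genotypes with IL-7.

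Leaving out 1 library at a time, where the lone library of a group is taken to vary like the others, the genes called between genotypes ranged from 0 to 0 with IL-7, 0 to 103 with IL-33 (103 without WT replicate 1), and 1 to 77 with NMU (77 without *Pac1-/-* replicate 2). They ranged from 12 to 37 for IL-33 against IL-7, 252 to 429 for CGRP against NMU, 133 to 243 for CGRP against IL-33, and 15 to 38 for NMU against IL-33. For the interactions they ranged from 0 to 56 with CGRP, 0 to 21 with NMU, and 0 to 36 with neuropeptide. Between genotypes with NMU, *Il2* ranged from 1.45 to 2.89 (called without *Pac1-/-* replicate 2, adjusted P = 0.0399) and *Il3* from 8.56 to 9.08. The NMU interaction of *Csf2* ranged from 2.34 to 3.22, called without *Pac1-/-* replicate 2 of NMU (3.08) and without WT replicate 1 of IL-33 (3.07). The neuropeptide interaction of *Il3* ranged from 9.54 to 10.74 and was called in 6 of 8 fits, all but those without a WT library of NMU. NMU against IL-33 for *Csf2* ranged from 0.99 to 2.02. These fits of *Il2*, *Il3*, and *Csf2* also use the values for which the genes were chosen. Directions turned only for values that were not called: between genotypes, *Csf2* with IL-7 (-0.29 to 0.014), *Il2* with IL-33 (-1.22 to 0.20), *Il2* (-0.19 to 0.24, also -0.072) and *Csf2* (-0.062 to 0.23) with CGRP, and *Csf2* over all treatments (-0.062 to 0.34); the CGRP interaction of *Il2* (-0.21 to 1.26); and *Il2rb* for CGRP against NMU (-0.13 to 0.36, also -0.1005 and -0.00056). Of 46 calls of other named genes, 44 held with DESeq2, 46 without a filter, 41 with the replicate block, 39 of 45 with all 16 libraries in the fit, and 330 of 372 with a library left out.

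With 2 libraries per group and depths down to 6764992 counts, a level under 0.443 CPM could not be told from 0.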
